A study of Mus musculus with 2 samples.

Results

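The 8 genes described here, Cdh2, Piezo2, Zfp462, Rapgef4, Ptprg, Nrxn3, Dach1 and Skil, were chosen by measured values: each had more counts per total in VE-cadherin-positive AGM cells (AGM, aorta-gonad-mesonephros) than in VE-cadherin-positive yolk sac cells, both at E11.5 and at E9.5 (E, embryonic day). All 8 have a row in both count tables, among 18323 gene rows that the tables share (20823 rows at E11.5 and 20575 at E9.5). Wild-type C57Bl/6 embryos gave AGM and yolk sac cells that excluded 7AAD, a dye of dead cells, and that were sorted as VE-cadherin positive, meant as endothelium, or negative, meant as the surrounding cells. Each stage was run on a chip of its own in the ICELL8 nanowell format, where wells imaged with 1 live cell are lysed and counted; how many embryos were pooled is not given in the sources used here. Each stage, tissue and gate is 1 pool of wells with no replicate, so no test across samples was possible and no p-value is given. After filtering, AGM wells numbered 284 positive and 337 negative at E11.5 and 299 positive and 354 negative at E9.5. Yolk sac wells numbered 343 positive and 379 negative at E11.5, and 325 positive and 305 negative at E9.5.

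Endothelium of the AGM lines the dorsal aorta and the vessels near it, from which definitive blood stem cells bud, whereas the yolk sac forms an earlier vascular bed outside the embryo and the earliest blood. Endothelial cells of different beds carry different adhesion proteins, channels and transcription factors on top of a shared core that includes Cdh5, the gene of VE-cadherin. The 8 genes span 3 kinds of function. Cdh2 (N-cadherin), Nrxn3 (neurexin 3) and Ptprg (a receptor protein tyrosine phosphatase) act in cell contact at the surface. Piezo2 (a mechanically gated cation channel) and Rapgef4 (Epac2, a cAMP-activated exchange factor for Rap proteins) act in signalling, and Zfp462 (a zinc finger protein), Dach1 (a dachshund-family cofactor) and Skil (SnoN, a partner of Smad proteins) act in the nucleus.

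Windows around an annotated transcription start were available in RefSeq (GRCm38.p6) for Rapgef4, Ptprg, Nrxn3 and Dach1. They run from 250 bases before to 50 bases after the start and are shown because these genes share the AGM bias. Capitals mark GGAA or TTCC, the core letters bound by ETS factors, a family that includes endothelial regulators. The 4 windows, 5′ to 3′ on the strand of the gene, are the following.
Rapgef4: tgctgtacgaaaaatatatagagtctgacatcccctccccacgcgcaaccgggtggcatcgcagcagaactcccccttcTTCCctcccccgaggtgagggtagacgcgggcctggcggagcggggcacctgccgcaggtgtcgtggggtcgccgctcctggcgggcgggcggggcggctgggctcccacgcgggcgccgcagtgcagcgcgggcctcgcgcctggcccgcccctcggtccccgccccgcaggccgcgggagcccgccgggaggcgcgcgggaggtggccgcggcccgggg
Ptprg: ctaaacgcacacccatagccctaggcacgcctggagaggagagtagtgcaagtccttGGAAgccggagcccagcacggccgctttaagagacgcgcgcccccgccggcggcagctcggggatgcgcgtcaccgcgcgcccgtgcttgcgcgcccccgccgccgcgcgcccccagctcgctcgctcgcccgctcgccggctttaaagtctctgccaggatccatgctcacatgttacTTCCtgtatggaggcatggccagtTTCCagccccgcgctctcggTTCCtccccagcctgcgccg
Nrxn3: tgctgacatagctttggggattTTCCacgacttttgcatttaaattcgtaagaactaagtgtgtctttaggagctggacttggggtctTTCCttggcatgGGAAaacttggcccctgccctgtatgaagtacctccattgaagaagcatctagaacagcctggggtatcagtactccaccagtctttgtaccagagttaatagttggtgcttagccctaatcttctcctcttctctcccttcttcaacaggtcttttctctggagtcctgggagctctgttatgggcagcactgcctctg
Dach1: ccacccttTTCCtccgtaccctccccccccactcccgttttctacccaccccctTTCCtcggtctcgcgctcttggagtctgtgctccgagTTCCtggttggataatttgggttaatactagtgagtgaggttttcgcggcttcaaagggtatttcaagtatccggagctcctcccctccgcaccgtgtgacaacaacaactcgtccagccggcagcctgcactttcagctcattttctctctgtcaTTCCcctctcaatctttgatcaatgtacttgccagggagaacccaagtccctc
The Rapgef4 window lies at chr2:71980965-71981264 on the plus strand. That of Ptprg lies at chr14:11553303-11553602 on the plus strand, 1 of 2 starts in the table. For Nrxn3 the window lies at chr12:88794254-88794553 on the plus strand, 1 of 3 starts and inside the annotated gene, and for Dach1 at chr14:98169716-98170015 on the minus strand. The core letters occurred 1, 4, 3 and 4 times in these windows, in the order Rapgef4, Ptprg, Nrxn3 and Dach1, and 96.0% of all 32851 windows of that length held them at least once, with a median of 3 per window. Longer motifs were searched on both strands: CGGAAG for ETS factors (it contains the core), TAAACA for forkhead factors, AACAAT for SOX factors, GATAAG for blood and endothelial zinc finger factors, and CACGTG for E-box factors. None of them matched in any of the 4 windows, while 16.9%, 13.4%, 10.7%, 7.44% and 7.15% of all windows held them, in that order. Base composition differed widely, from 76.7% GC in the Rapgef4 window and 69.0% in that of Ptprg to 54.0% for Dach1 and 47.3% for Nrxn3, against a median of 52.7% over all windows.

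Depth limits what single wells can show. Pool totals ran from 841341 to 3862642 counts and median counts per well from 2538 to 12452, highest in the E9.5 yolk sac negative pool. Levels are given as CPM, a pool's counts of a gene scaled to a common total. Comparisons are given as the log2 of a ratio of CPM, with an exact 95% interval for counting error alone; use of molecular identifiers is not stated, so counts may include copies of a molecule. Cells of a pool share embryos, sort and chip, and in pooled counts fewer expressing cells and less RNA per cell cannot be told apart; shares of wells are therefore given as well, after each well was thinned at random to 1500 counts. The gates separated Cdh5 as labelled: it stood at 402 CPM in AGM positive and 12.8 CPM in AGM negative cells at E11.5, and at 437 and 14.7 CPM at E9.5. Summed CPM of 12 endothelial markers was 1829 and 105 in AGM positive and negative cells at E11.5, and 2011 and 70.0 at E9.5. In yolk sac positive and negative cells it was 1373 and 75.4 at E11.5, and 2351 and 42.7 at E9.5. At E11.5, however, 40.1% of AGM positive and 32.7% of yolk sac positive wells held at least 3 of these markers other than Cdh5, against 86.6% and 84.3% at E9.5. The 2 chips share 473 well barcodes, and wells were told apart by chip.

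Among the surface proteins, Cdh2 was seen in the AGM in both gates and was scarce in the yolk sac. The gene lies on chromosome 18 (16588877 to 16809246, minus strand; GENCODE M21, GRCm38) and encodes the cadherin that links neural and mesenchymal cells and joins endothelium to mural cells. At E11.5 it had 60.6 CPM in AGM positive, 192 in AGM negative, 8.45 in yolk sac positive and 28.2 in yolk sac negative cells. At E9.5 the same pools had 51.0, 151, 6.51 and 1.55 CPM. Both AGM negative pools were highest and both AGM positive pools next, with the 2 AGM positive pools not apart beyond counting error. In the E9.5 yolk sac Cdh2 was close to the counting floor, with 9 counts in the positive and 6 in the negative pool. After thinning it was found in 8.30% of AGM positive and 0.877% of yolk sac positive wells at E11.5, and in 4.35% and 0.615% at E9.5; before thinning these shares were 12.7%, 2.92%, 20.4% and 2.77% in the same order.

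Nrxn3, a presynaptic adhesion protein known from neurons, had its highest level in a yolk sac pool. It lies on chromosome 12 (88722876 to 90334935, plus strand) and is the longest of the 8 genes at 1612 kb. At E11.5 it had 97.5 CPM in AGM positive, 53.2 in AGM negative, 31.2 in yolk sac positive and 167 in yolk sac negative cells. At E9.5 the levels were 43.1, 9.41, 20.2 and 4.14 CPM in the same pools. The E11.5 yolk sac negative pool was thus the highest of all, the E11.5 AGM positive pool second, and the E9.5 yolk sac negative pool the lowest. Thinned wells with a Nrxn3 count made up 10.1% of AGM positive and 3.22% of yolk sac positive wells at E11.5, and 4.68% and 2.46% at E9.5; unthinned shares were 14.8%, 7.87%, 19.1% and 7.08%. In the E11.5 yolk sac negative pool 15.6% of thinned wells held it, and the highest well gave 3.66% of the pool's 273 counts.

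Ptprg, whose extracellular part binds contactins, was detected in all pools. It lies on chromosome 14 (11553532 to 12242041, plus strand). At E11.5 it had 364 CPM in AGM positive, 219 in AGM negative, 119.9 in yolk sac positive and 105 in yolk sac negative cells. At E9.5 it had 250.2, 215, 114 and 17.6 CPM in the same pools. The E11.5 AGM positive pool stood above all others, the next 3 were the other AGM pools, among which neighbours did not differ beyond counting error, and the E9.5 yolk sac negative pool was lowest. Ptprg was found in 35.0% of thinned AGM positive and 14.6% of thinned yolk sac positive wells at E11.5, and in 23.4% and 13.8% at E9.5 (unthinned 44.4%, 25.7%, 58.9% and 31.1%).

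Of the signalling genes, Piezo2, the channel that serves touch and the sense of body position in sensory neurons, had a gate ratio in the AGM that differed between stages. It lies on chromosome 18 (63010213 to 63387183, minus strand). At E11.5 it had 160.5 CPM in AGM positive, 151 in AGM negative, 35.5 in yolk sac positive and 11 in yolk sac negative cells. At E9.5 the levels were 103, 10.6, 23.9 and 1.81 CPM. Both AGM pools were thus high at E11.5, while at E9.5 the AGM positive pool alone was. In thinned wells Piezo2 was found in 17.7% of AGM positive and 5.26% of yolk sac positive wells at E11.5, and in 9.70% and 3.08% at E9.5 (unthinned 25.4%, 10.8%, 35.1% and 8.92%).

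Rapgef4 activates Rap proteins, which strengthen endothelial junctions, and was highest in AGM positive cells at both stages. It lies on chromosome 2 (71981240 to 72257474, plus strand), and 2 rows of the tables overlap it on the opposite strand with 1 count each in AGM positive cells. Levels at E11.5 were 85.6 CPM in AGM positive, 14.7 in AGM negative, 32.1 in yolk sac positive and 17.2 in yolk sac negative cells. Levels at E9.5 were 78.3, 26.5, 26.8 and 9.06 CPM. The 2 AGM positive pools did not differ beyond counting error and stood apart from the other 6; among those 6 no neighbours in the order differed beyond it. Thinned wells with Rapgef4 made up 11.2% of AGM positive and 3.80% of yolk sac positive wells at E11.5, and 11.7% and 3.69% at E9.5 (unthinned 17.6%, 6.71%, 34.1% and 8.92%). A single E11.5 yolk sac positive well held 21.1% of that pool's 38 counts.

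**Figure D1:**
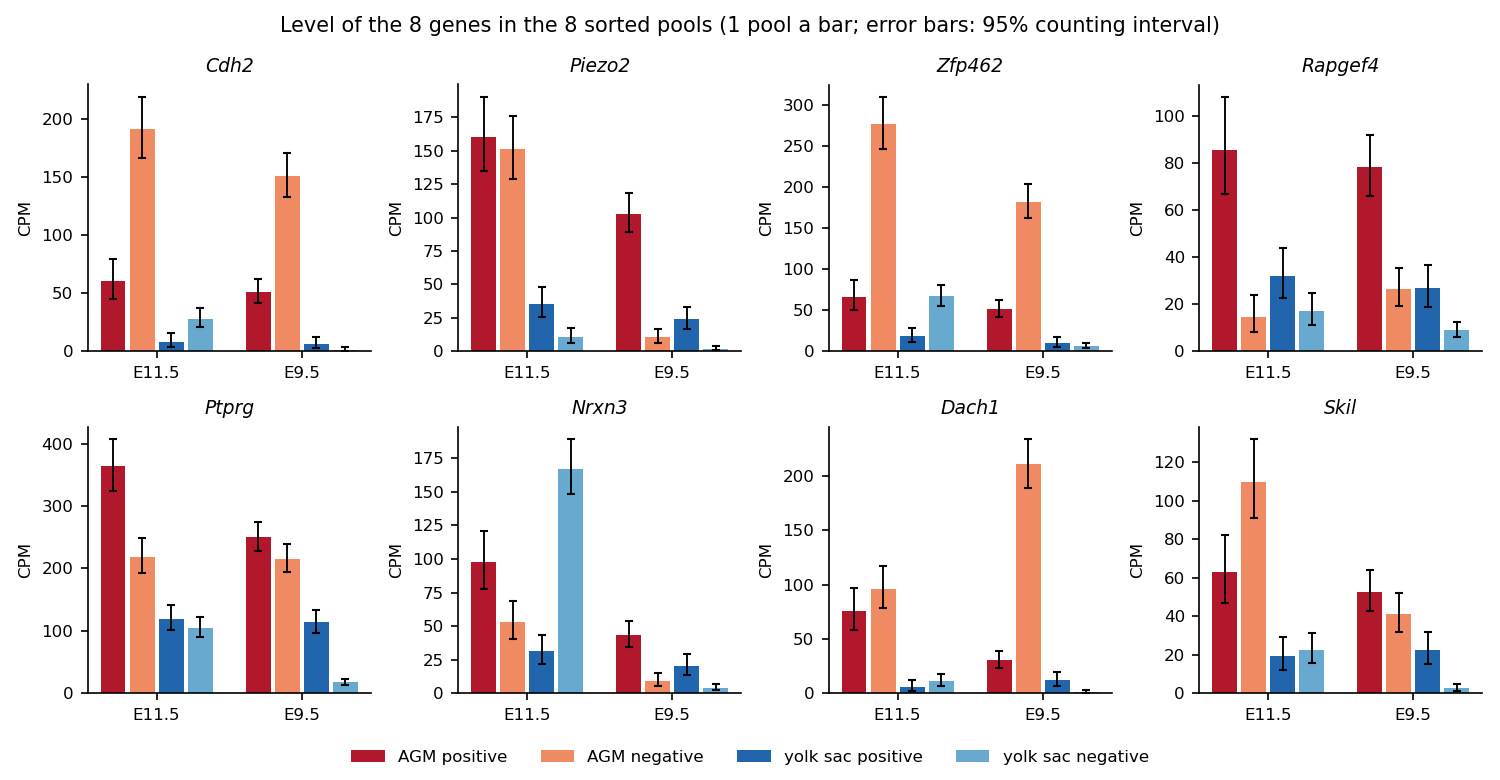
CPM of each gene in the 8 pools, E11.5 left of E9.5 with the AGM bars (positive, then negative) left of the yolk sac bars (positive, then negative) within a stage; error bars are exact 95% Poisson intervals of 1 pool. In all 8 panels the AGM positive bar exceeds the yolk sac positive bar at both stages, which is how the genes were chosen, while the negative bars differ from gene to gene.

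Of the nuclear factors, Zfp462, which acts on chromatin in mouse embryonic stem cells, was highest in AGM negative cells. It lies on chromosome 4 (54945048 to 55083563, plus strand). It had 66.6 CPM in AGM positive, 276 in AGM negative, 18.6 in yolk sac positive and 67.5 in yolk sac negative cells at E11.5. At E9.5 these levels were 51.0, 182, 10.1 and 6.99 CPM. The 2 AGM negative pools were apart from each other and from all the rest, and the E11.5 AGM positive and yolk sac negative pools were equal within counting error. Zfp462 was found in 9.03% of thinned AGM positive and 3.22% of thinned yolk sac positive wells at E11.5, and in 7.02% and 0.923% at E9.5 (unthinned 15.1%, 5.83%, 24.4% and 4.31%).

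Dach1, a partner of Eya proteins that also acts in arterial growth in mouse endothelium, was low in the yolk sac throughout. It lies on chromosome 14 (97786853 to 98169765, minus strand). At E11.5 it had 76.1 CPM in AGM positive, 96.3 in AGM negative, 5.91 in yolk sac positive and 11.7 in yolk sac negative cells. At E9.5 it had 30.5, 211, 12.3 and 1.29 CPM. The E9.5 AGM negative pool was far above the rest, and the 2 AGM pools of E11.5 were not apart beyond counting error. In thinned wells the shares were 8.66% in AGM positive and 1.46% in yolk sac positive wells at E11.5, and 2.01% and 1.85% at E9.5 (unthinned 14.8%, 2.04%, 13.4% and 4.92%). At E9.5 the thinned shares of the 2 positive pools thus lay within each other's intervals, and 1 AGM positive well held 17.2% of the pool's 58 counts.

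Skil, which represses Smad targets and is itself induced by TGF-beta, was the shortest of the 8 genes at 27.5 kb (chromosome 3, 31095058 to 31122577, plus strand). It had 63.0 CPM in AGM positive, 110.0 in AGM negative, 19.4 in yolk sac positive and 22.7 in yolk sac negative cells at E11.5. The E9.5 pools had 52.6, 41.2, 22.4 and 2.59 CPM. The E11.5 AGM negative pool was highest; the next 3 pools, all AGM, were below it, and neighbours among these 3 did not differ beyond counting error; 1 E11.5 AGM negative well held 13.3% of that pool's 120 counts. Thinned shares were 9.39% of AGM positive and 3.22% of yolk sac positive wells at E11.5, and 5.35% and 2.77% at E9.5 (unthinned 15.1%, 6.12%, 27.8% and 8.31%).

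The contrast that chose the genes was AGM positive over yolk sac positive, at both stages, so its values are a description. By that choice all 8 members passed 2-fold toward the AGM on each chip, where 10.8% of 7235 rows with at least 20 counts in the pair were so at E11.5 and 3.58% of 9143 rows at E9.5. Their log2 ratios ran from 1.41 (Rapgef4) to 3.69 (Dach1) at E11.5, with a median of 1.77 against 0.24 over all rows. At E9.5 they ran from 1.09 (Nrxn3) to 2.97 (Cdh2), with a median of 1.43 against -0.12 over all rows. With TMM scaling, which sets the ratio of most rows near 1, all 8 members stayed past 2-fold at both stages; rows then counted 6.47% higher and 6.80% lower at E11.5 (10.8% and 4.80% by pool totals) and 4.82% and 7.43% at E9.5 (3.58% and 9.45%). When genes with 50 counts or more in AGM positive cells, seen in 10% or more of the wells, were ranked by the smaller of the 2 ratios, the members were 8 of the first 12. Only rows higher in AGM positive cells at both stages were ranked. Rows with mitochondrial, ribosomal protein, Gm-numbered or Rik names were left out, as were names starting with a digit or an Ensembl identifier. Just inside stood Ptprg at 1.13 and Nrxn3 at 1.09; just outside stood Lamb1 at 1.06 and Slco3a1 and Zfp423 at 1.05. Fbn2, Mir99ahg and Mdk are among the other genes of the first 12.

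The intervals show how firmly counts fix these ratios. For Dach1 the E11.5 ratio of 3.69 had an interval from 2.56 to 5.06 and rested on 64 counts in AGM positive and 7 in yolk sac positive cells, while the E9.5 ratio was 1.31 (0.51 to 2.18). Cdh2 stood at 2.84 (1.85 to 3.99) at E11.5 and 2.97 (1.99 to 4.14) at E9.5, and Piezo2 at 2.18 (1.67 to 2.71) and 2.11 (1.57 to 2.69). Cdh2 and Piezo2 thus had nearly the same ratio on both chips, whereas that of Dach1 differed. For Nrxn3, Ptprg, Dach1 and Skil the E9.5 intervals reached below a log2 ratio of 1, and for Skil and Rapgef4 the E11.5 intervals did.

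Markers of other cell types moved with this contrast. The summed CPM of 9 visceral endoderm markers was 391 in AGM positive and 7958 in yolk sac positive cells at E11.5, and 9.46 and 96.9 at E9.5. Ten-gene lists gave 377 and 784 CPM for mesenchyme and 1105 and 937 CPM for macrophages at E11.5, and 27.9 and 70.9 CPM and 35.2 and 609 CPM at E9.5. All 9 visceral endoderm and all 10 mesenchymal markers but Amn and Twist1 had counts in the E11.5 AGM positive pool, and at E9.5 Apoa2, Apom, Amn and Lum were at 0 there. For 10 neural and neural crest markers the sums were 109 and 91.2 CPM at E11.5 and 134 and 89.7 CPM at E9.5. Of these 10, 5 had no count in AGM positive and 4 in yolk sac positive cells at E11.5, and 4 and 5 at E9.5. Sox2 and Tubb3 were not used here. Haemoglobin made up a median of 25.6% of a well's counts in AGM positive and 34.8% in yolk sac positive wells at E11.5, and 24.4% and 19.0% at E9.5. With wells restricted to those holding at least 3 endothelial markers other than Cdh5 and fewer than 2 mesenchymal and 2 neural markers, a restriction chosen after seeing the data, 90 AGM and 61 yolk sac wells remained at E11.5 and 230 and 259 at E9.5. In these wells the ratios ran from 1.55 (Zfp462) to 4.67 (Dach1, 31 counts in AGM and 1 count in yolk sac wells, interval 2.08 to 10.02) at E11.5. At E9.5 they ran from 0.93 (Nrxn3, 0.26 to 1.65) to 3.26 (Cdh2), so that Nrxn3 alone fell short of 2-fold. These wells are a subset of those that chose the genes, so their ratios are a description as well. Visceral endoderm markers, macrophage markers and haemoglobin were not used in the restriction. The part of the other markers in the contrast over all wells was not tested further.

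The negative pools were not used by the choice of genes, and there AGM was compared with yolk sac in cells outside the endothelial gate. At E11.5, 6 of 8 members were at least 2-fold higher in AGM negative cells, where 43.8% of 9346 rows were. At E9.5 all 8 were, where 56.0% of 10075 rows were. The members' median log2 ratio was 2.15 at E11.5 and 3.80 at E9.5, against 0.87 and 1.17 over all rows. Haemoglobin moved with this contrast: it took a median of 3.44% of a well's counts in AGM negative and 31.5% in yolk sac negative wells at E11.5, and 4.54% and 38.1% at E9.5. With totals that leave out haemoglobin and mitochondrial genes, the median over all rows was 0.34 at E11.5 and 0.56 at E9.5, and 21% and 33.9% of rows were 2-fold higher. The members higher were then 5 of 8 at E11.5 (Ptprg at 0.52) and 6 of 8 at E9.5 (Rapgef4 at 0.94 and Nrxn3 at 0.58). With TMM scaling the median over all rows moved to 0.03 at E11.5 and 0.04 at E9.5. Under it 13.2% of rows were higher and 13.6% lower in the AGM at E11.5 (43.8% and 5.59% by pool totals), and 22.0% and 16.0% at E9.5 (56.0% and 4.32%). Members then counted 5 higher and 2 lower at E11.5 and 6 higher and 0 lower at E9.5.

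Single members differed widely in this contrast. The log2 ratio of Dach1 was 3.05 (2.33 to 3.83) at E11.5 and 7.35 (6.11 to 8.98) at E9.5, where AGM negative cells had 358 counts and yolk sac negative cells 5. Cdh2 followed with 2.76 (2.30 to 3.26) and 6.60 (5.46 to 8.06), and Zfp462 with 2.03 (1.71 to 2.36) and 4.70 (4.13 to 5.33). These 3 genes passed 2-fold toward the AGM outside the endothelial gate as well, also under TMM scaling (lowest value 1.18, Zfp462 at E11.5). Piezo2 and Skil likewise passed 2-fold toward the AGM there at both stages, by pool totals and under TMM scaling. Piezo2 had 3.78 (3.07 to 4.57) at E11.5 and 2.55 (1.22 to 4.05) at E9.5, and Skil 2.28 (1.73 to 2.85) and 3.99 (3.03 to 5.11). Ptprg had 1.05 (0.77 to 1.35) and 3.61 (3.24 to 4.01), of which the E11.5 value was 0.21 under TMM scaling. Rapgef4 did not differ 2-fold at E11.5 (-0.23, -1.21 to 0.71; -1.08 under TMM scaling) and had 1.55 (0.88 to 2.23) at E9.5 (0.41 under TMM scaling). Nrxn3 went the other way at E11.5, with -1.65 (-2.09 to -1.24) against 1.18 (0.09 to 2.28) at E9.5; under TMM scaling these were -2.50 and 0.05.

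**Figure D2:**
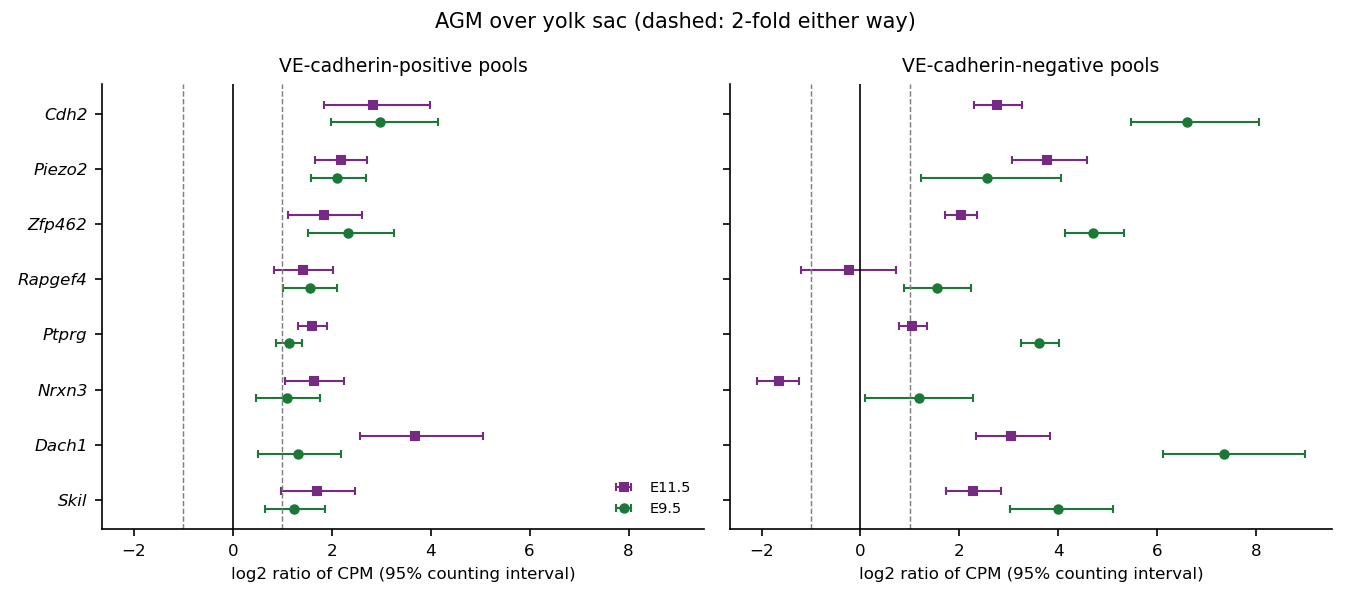
Log2 ratio of CPM, AGM over yolk sac, per gene in the positive pools (left, the contrast that chose the genes) and the negative pools (right), with E11.5 as squares and E9.5 as circles; bars are exact 95% counting intervals and dashed lines mark 2-fold. On the left all points lie right of 1; on the right Dach1 and Cdh2 at E9.5 lie at 7.35 and 6.60, and Nrxn3 at E11.5 lies at -1.65.

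Whether a gene followed the VE-cadherin gate was asked within each tissue; these contrasts share the positive pools with the choice of genes. In the AGM at E11.5, 1 of 8 members was at least 2-fold higher in positive cells and 2 were lower, where 6.78% of 8693 rows were higher and 39.9% lower. At E9.5, 3 were higher and 3 lower, where 7.28% of 9964 rows were higher and 21.3% lower. Rapgef4 was higher at both stages, at 2.54 (1.75 to 3.43) for E11.5 and 1.56 (1.07 to 2.08) at E9.5. Piezo2 (3.28, 2.58 to 4.07) and Nrxn3 (2.19, 1.41 to 3.07) were higher at E9.5; at E11.5 their ratios were 0.09 (-0.25 to 0.42) and 0.87 (0.37 to 1.38). Cdh2 was lower at both stages, with -1.66 (-2.13 to -1.21) and -1.57 (-1.92 to -1.23), as was Zfp462, with -2.05 (-2.49 to -1.64) and -1.83 (-2.18 to -1.50). Dach1 was lower at E9.5, at -2.79 (-3.21 to -2.38), and stood at -0.34 (-0.81 to 0.12) at E11.5. Ptprg and Skil stayed within 2-fold at both stages. By TMM scaling Ptprg (1.34) and Nrxn3 (1.48) also passed 2-fold at E11.5, rows counted 11.4% higher and 19.3% lower at E11.5 and 11.6% higher and 12.4% lower at E9.5, and the sign of Dach1 at E11.5 turned to 0.27.

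In the yolk sac the gate ratios differed more between stages. At E11.5, 1 of 8 members was higher in positive cells (Piezo2, 1.68, 0.86 to 2.57) and 3 were lower (Cdh2 -1.74, Zfp462 -1.86 and Nrxn3 -2.42), where 9.65% of 8381 rows were higher and 13.6% lower. At E9.5, 6 of the 7 members with enough counts were higher, where 41.8% of 9371 rows were higher and 2.55% lower; Cdh2 had 15 counts in the pair and was not counted. Piezo2 (3.72, 2.52 to 5.14), Dach1 (3.25, 1.75 to 5.04) and Skil (3.11, 2.05 to 4.31) led, and Zfp462 was at 0.53 (-0.51 to 1.52; -0.30 under TMM scaling). TMM scaling left 5 of 7 members higher at E9.5 and 18.8% of rows higher and 9.97% lower. Mesenchymal markers summed to 784 CPM in yolk sac positive and 8671 CPM in yolk sac negative cells at E11.5, and to 70.9 and 851 CPM at E9.5, with all 10 markers counted in the negative pools; their part in the members' ratios was not tested.

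**Figure D3:**
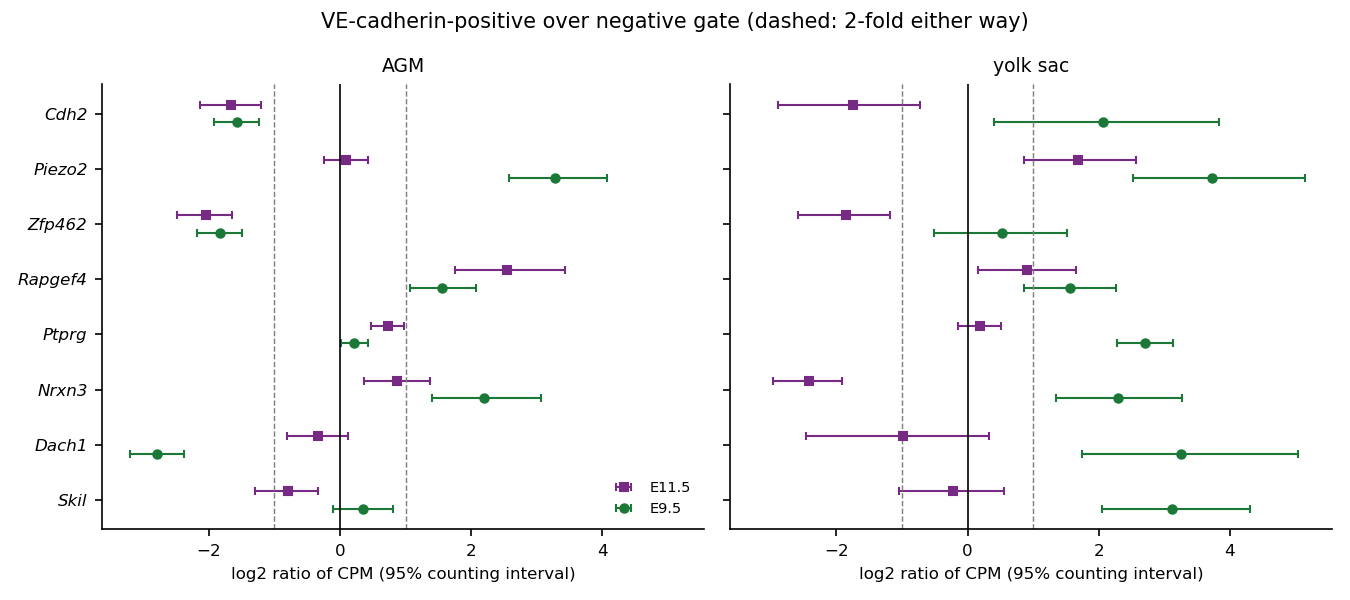
Log2 ratio of CPM, VE-cadherin-positive over negative cells, per gene in the AGM (left) and the yolk sac (right), with E11.5 as squares and E9.5 as circles; bars are exact 95% counting intervals and dashed lines mark 2-fold. Rapgef4 lies right of 1 in the AGM at both stages, Cdh2 and Zfp462 lie left of -1 there, and Nrxn3 in the yolk sac lies at -2.42 at E11.5 and 2.29 at E9.5.

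In the AGM, Cdh2 and Zfp462 were 2-fold higher outside the endothelial gate at both stages, and Dach1 was so at E9.5 alone. The levels of these 3 genes in AGM positive cells were therefore set beside those of marker lists for the other AGM cells. Cdh2 in AGM positive cells was at 31.6% (22.8 to 43.1) of its AGM negative level at E11.5 and at 33.7% (26.4 to 42.8) at E9.5. Zfp462 was at 24.1% (17.8 to 32.2) and 28.0% (22.1 to 35.3), and Dach1 at 79.0% (57.0 to 109) and 14.5% (10.8 to 19.1). The 10 mesenchymal markers together were at 18.8% (16.7 to 21.2) at E11.5 and 5.94% (4.41 to 7.85) at E9.5. For 9 somite and muscle markers the values were 5.19% (2.34 to 10.0) and 3.84% (2.17 to 6.32), and for 10 intermediate mesoderm and gonad markers 10.7% (5.75 to 18.5) and 1.10% (0.132 to 4.02), with 8 of these 10 at 0 in the E9.5 AGM positive pool. All 3 genes held a larger part of their AGM negative level than these 3 lists did at both stages. The intervals of Zfp462 and the mesenchymal list overlapped at E11.5. The genes were chosen for a high level in AGM positive cells, which raises this percent, and the lists passed no such choice. The larger part is therefore a description, and no conclusion is drawn from it. The neural and neural crest list stood at 59.0% (45.6 to 75.9) and 61.7% (52.3 to 72.6), above Cdh2 and Zfp462 at both stages. A few genes carried this sum: of the neural genes with at least 20 counts in the pair, 2 of 4 at E11.5 and 4 of 6 at E9.5 were 2-fold lower in AGM positive cells and 0 higher, with medians of -2.03 and -3.12. Of the 10 neural genes, 5 had no count in AGM positive cells at E11.5 and 4 had none at E9.5, while the rest had counts. Wells with at least 2 neural markers made up 1.76% of AGM positive and 1.75% of yolk sac positive wells at E11.5. At E9.5 they made up 8.70% and 2.77%. These lists were chosen with earlier results known, and whether cells of these types contributed counts to the AGM positive pool was not tested further.

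**Figure D4:**
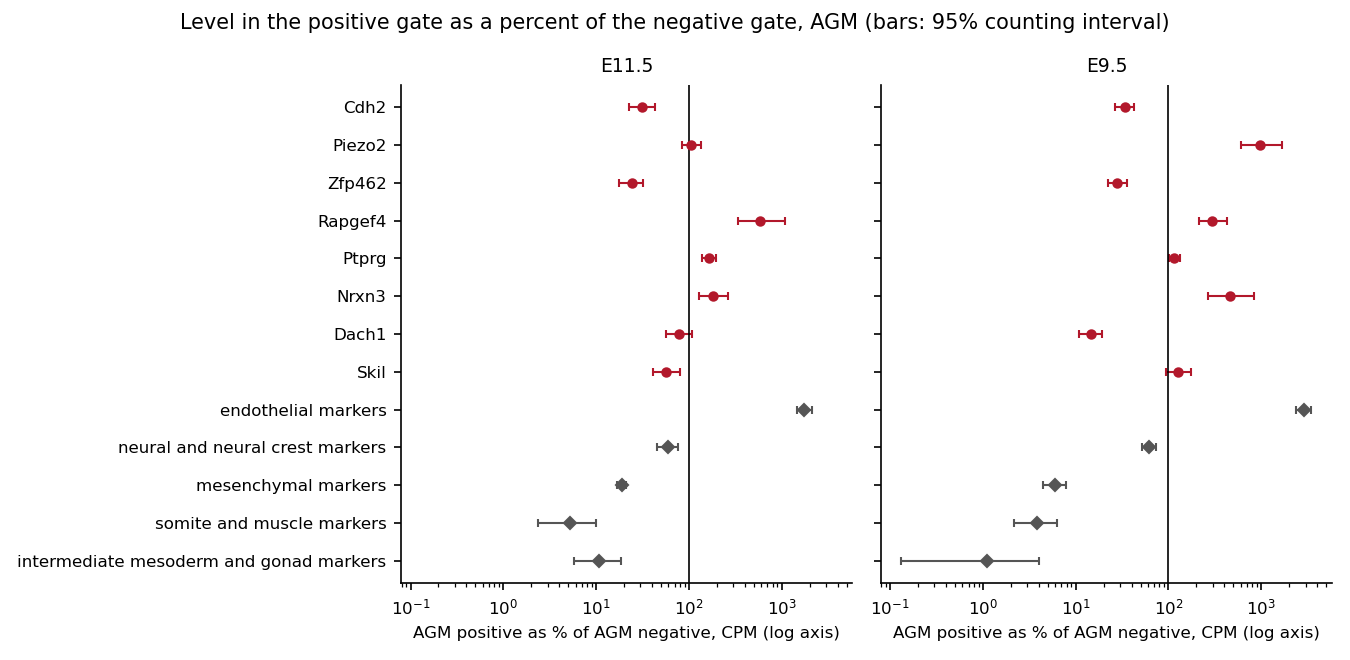
Level in AGM positive cells as a percent of the level in AGM negative cells (log axis) for the 8 genes (circles) and for the summed counts of 5 marker lists (diamonds), E11.5 left and E9.5 right; bars are exact 95% counting intervals and the line marks equal levels. At E9.5 Cdh2, Zfp462 and Dach1 lie between 14.5% and 33.7%, right of the mesenchymal (5.94%), somite (3.84%) and intermediate mesoderm (1.10%) lists. The neural and neural crest list lies right of these genes, at 61.7%. At E11.5 the intervals of Zfp462 and the mesenchymal list overlap. The choice of genes raises their percent, so their place is a description.

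Co-detection with Cdh5 was counted in single AGM positive wells. Cdh5 itself had a count in 49.3% of wells at E11.5 and 89.0% at E9.5, against 3.86% and 6.78% of AGM negative wells. Before thinning, all 8 members were seen more often in wells with Cdh5 than in those without at both stages, but median counts were 2602 in wells with Cdh5 and 2458 in those without at E11.5, and 5990.0 and 4647 at E9.5. After thinning to 1500 counts, all 8 were still more frequent with Cdh5 at E11.5, where 61.3% of 4140 rows with at least 10 wells were. At E9.5, 5 of 8 were (Cdh2, Piezo2, Ptprg, Dach1 and Skil), where 54.6% of 4782 rows were, a share near that of the members. The set of genes depended on the depth kept: thinned to 2500 counts, 6 of 8 were more frequent with Cdh5 at E9.5, among them Zfp462, Rapgef4 and Nrxn3, while Cdh2 (9.14% with and 10.1% without) and Piezo2 (17.3% and 20.2%) were not; at E11.5 all 8 again were. The largest gap was that of Ptprg at E11.5, found in 45.8% (36.1 to 55.7) of 107 wells with Cdh5 and in 28.2% (21.6 to 35.6) of 170 wells without, and its intervals alone did not overlap. Piezo2 was found in 26.2% (18.1 to 35.6) and 12.4% (7.81 to 18.3), and Nrxn3 in 15.0% (8.80 to 23.1) and 7.06% (3.70 to 12). Kdr and Pecam1, endothelial genes that served as a measure, gave 34.6% and 18.8%, and 50.5% and 21.2%. At E9.5 Rapgef4 was found in 9.03% (4.89 to 14.9) of 144 wells with Cdh5 and 14.2% (9.11 to 20.7) of 155 without. For Kdr the shares were 37.5% (29.6 to 45.9) and 27.1% (20.3 to 34.8), and for Pecam1 29.2% and 22.6%. Thinned to 2500 counts at E9.5, Kdr gave 46.7% and 45.5%, and Pecam1 34.0% and 42.4%. The measure itself thus depended on the depth kept at E9.5, and no departure of Rapgef4 from it is claimed. Thinning to 1500 counts removed Cdh5 itself from many wells, so a well without Cdh5 need not be a cell without it.

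**Figure D5:**
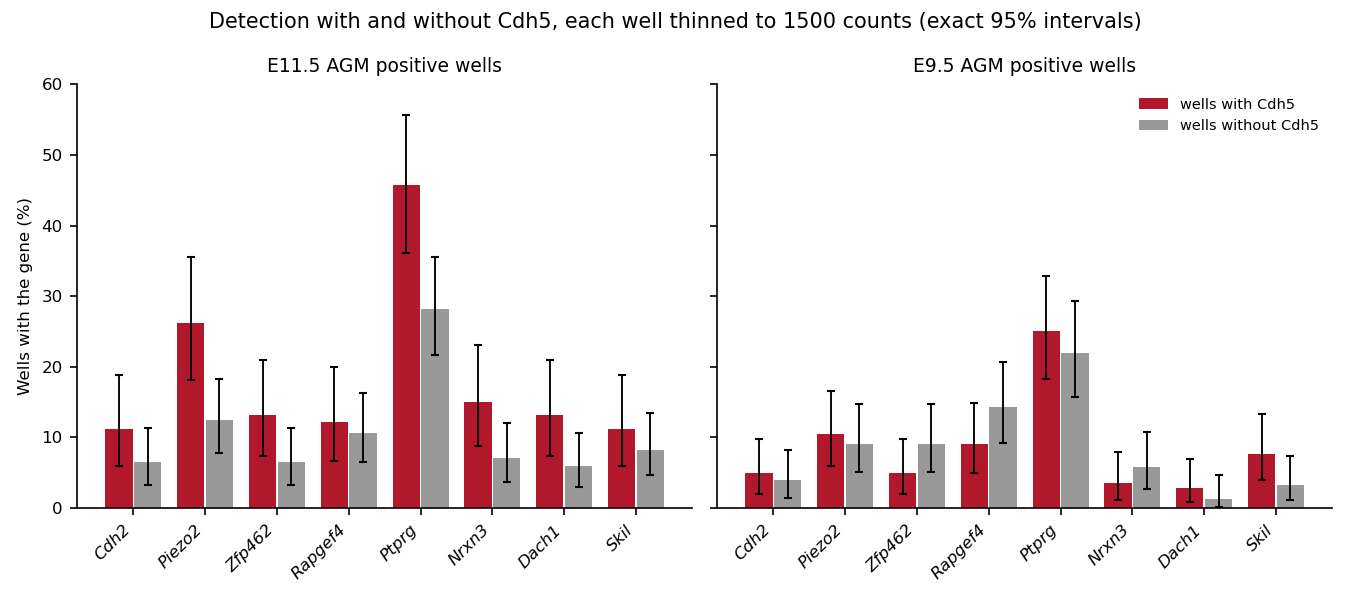
Share of AGM positive wells with a count of each gene among wells with Cdh5 (red, left bar) and without (grey, right bar), E11.5 left and E9.5 right, each well thinned at random to 1500 counts; error bars are exact 95% binomial intervals. At E11.5 each red bar exceeds its grey bar, with Ptprg at 45.8% against 28.2%, while at E9.5 most pairs are close.

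Wells were also split by how many endothelial markers other than Cdh5 they held. Wells with at least 3 held 40.9% of the AGM positive counts in the E11.5 tables and 90.0% in those of E9.5. At E11.5 they gave between 56.9% (Cdh2) and 81.7% (Nrxn3) of a member's counts, and 6 of 8 members were at least 2-fold higher in CPM in them than in the other wells, where 17.0% of 4382 rows were. Nrxn3 had the highest ratio, with 195 CPM in these wells and 30.2 CPM in the others, a log2 ratio of 2.69 (1.87 to 3.60), followed by Rapgef4 with 139 and 48.3 CPM (1.53, 0.79 to 2.30). Ptprg had 575 and 217 CPM (1.40, 1.06 to 1.76), and the 2 members under 2-fold were Cdh2 (0.93, 0.08 to 1.80) and Dach1 (0.98, 0.23 to 1.76). At E9.5, 2 of 8 members were 2-fold higher, Cdh2 (54.9 and 15.7 CPM; 1.80, 0.21 to 4.11) and Ptprg (269 and 78.7 CPM; 1.77, 1.04 to 2.62), where 20.2% of 7368 rows were. The other wells were only 40 in number there, and 3 counts of Cdh2 came from them. Wells with at least 3 markers were deeper, with median counts of 2781 against 2357 at E11.5 and 6175 against 4588 at E9.5, and the part of depth was not tested.

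Wells were also counted by how many members they held; a higher share in AGM positive than in yolk sac positive wells follows from the choice of genes, and no test of joint presence was made. After thinning, at least 2 of the 8 were present in 30.7% (25.3 to 36.5) of AGM positive and 6.43% (4.07 to 9.58) of yolk sac positive wells at E11.5, and in 16.1% (12.1 to 20.7) and 3.69% (1.92 to 6.36) at E9.5. Among AGM negative wells the share was 42.0% (36.4 to 47.8) at E11.5 and 26.3% (21.8 to 31.2) at E9.5. Yolk sac negative wells gave 9.76% (6.97 to 13.2) at E11.5 and 0 of 304 wells at E9.5, which allows up to 1.21%. Wells in which haemoglobin made up at least 50% of counts were found at E11.5 alone, 16 AGM positive, 66 yolk sac positive and 40 yolk sac negative. The 16 AGM positive wells gave between 0% (Cdh2) and 3.70% (Piezo2) of the members' AGM positive counts. They held 7.12% of all counts of that pool, and haemoglobin took a median of 57.5% of a well's counts in them.

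Stage was compared within the positive gate, with the limit that each stage is 1 chip, so stage and chip cannot be told apart. In AGM positive cells 2 of 8 members were at least 2-fold higher at E11.5 than at E9.5, where 9.39% of 8495 rows were higher and 23.3% lower. These were Dach1, with 76.1 CPM at E11.5 and 30.5 CPM at E9.5 (log2 ratio 1.32, 0.78 to 1.86), and Nrxn3, with 97.5 and 43.1 CPM (1.18, 0.72 to 1.64). The other 6 lay between 0.13 (Rapgef4) and 0.64 (Piezo2), against a median of -0.33 over all rows. In yolk sac positive cells 0 of 7 members were higher, where 5.19% of 8480 rows were higher and 35.2% lower, and Dach1 was lower (5.91 and 12.3 CPM; -1.06, -2.57 to 0.29). TMM scaling made 3 of these 7 higher (Piezo2 1.02, Zfp462 1.33 and Nrxn3 1.08), put Dach1 at -0.61, and moved the rows to 8.76% higher and 18.5% lower. RNA of E14FF mouse embryonic stem cells was run on both chips as a positive control, and there Dach1 had 3 counts on the E11.5 chip and 1 on the E9.5 chip (20.1 and 3.22 CPM), and Nrxn3 had 4 and 0 counts. Piezo2 had 6 and 1 counts (40.2 and 3.22 CPM). These 3 genes were thus higher on the E11.5 chip in control RNA too, on very few counts. Ptprg was lower on it, with 20.1 and 113 CPM (3 and 35 counts). Skil (47.0 and 90.2 CPM) and Zfp462 (47.0 and 80.5 CPM) were lower too, with counting intervals that overlapped. Cdh2 had 1 and 4 counts and Rapgef4 0 and 2 counts, too few to put the chips in order. Wells of the negative control had a median depth of 329 counts on the E11.5 chip and 124 on the E9.5 chip. On such small totals few counts give high rates. Ptprg had 4 counts on each chip (231 and 620.0 CPM), Cdh2 3 and 1, and Nrxn3 3 and 0. Dach1 had 0 on both, and the other members had 1 and 0. Cdh2 and Nrxn3 were each in 6.38% of 47 E11.5 control wells, unthinned. Their yolk sac positive shares at E11.5 were 2.92% and 7.87% unthinned, and 0.877% and 3.22% thinned. The part of such background in the sorted pools was not tested.

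Relatives and pathway genes were read in the contrast that chose the members, so each list's count of higher genes includes its member. Over all rows 10.8% were 2-fold higher at E11.5 and 3.58% at E9.5. Of 14 cadherins, catenins and partners, 9 had enough counts in the positive pools at E11.5 and 8 at E9.5, and 3 and 2 of them passed 2-fold toward the AGM, Cdh2 included, with 1 lower at E11.5; Cdh5 was within 2-fold, at 402 CPM in AGM positive and 245 CPM in yolk sac positive cells at E11.5 and 437 and 483 CPM at E9.5. Among 14 receptor phosphatases and ligands, 2 of 9 were higher and 1 lower at E11.5 and 4 of 10 higher and 2 lower at E9.5; Ptprb, the phosphatase of VE-cadherin and Tie2, had 121 and 175 CPM at E11.5 and 68.9 and 143 CPM at E9.5 (log2 ratios -0.53 and -1.06). Ptprb thus pointed away from the AGM where Ptprg pointed toward it. For 14 neurexins and partners the counts were 2 of 6 higher at E11.5 and 2 higher and 2 lower of 6 at E9.5. Cask, a scaffold that binds neurexins, was the only listed gene beside the members that was 2-fold higher at both stages, with 45.2 and 21.1 CPM at E11.5 (1.10, 0.33 to 1.89) and 39.9 and 16.6 CPM at E9.5 (1.26, 0.57 to 2.00).

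Of 12 genes of mechanosensing and flow response, 1 of 8 was higher at E11.5 and 1 higher and 1 lower of 9 at E9.5, the higher one being Piezo2 itself. Piezo1, the channel through which endothelium senses flow, had 85.6 CPM in AGM positive and 47.3 CPM in yolk sac positive cells at E11.5 and 50.5 and 47.7 CPM at E9.5 (0.86 and 0.08). Of 14 genes of Epac and Rap signalling, 1 of 11 was higher at E11.5, and 3 higher and 1 lower of 13 at E9.5; Rapgef3 (Epac1) was among them at E9.5, with 15.8 and 7.23 CPM (1.12, 0.05 to 2.32), and had 10 and 9 counts at E11.5. Of 10 Dach and Eya proteins and their partners, 3 had enough counts at each stage; Dach1 was the one higher, 1 was lower at E11.5, and Dach2 had at most 7 counts in any positive pool. Of 15 genes of Ski, Smad and TGF-beta signalling, 4 of 14 were higher at E11.5 and 1 higher and 1 lower of 14 at E9.5; Ski, the nearest relative of Skil, had 85.6 and 42.2 CPM at E11.5 (1.02, 0.48 to 1.57) and 31.5 and 32.5 CPM at E9.5 (-0.05, -0.63 to 0.55). The lists' medians lay between 0.22 and 0.76 at E11.5, where all rows had 0.24, and between -0.17 and 0.16 at E9.5, where all rows had -0.12.

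All members but Skil were long genes, and length itself was not part of the choice. The rows set beside them here were not held to the ranking's minimum of 50 counts and 10% of wells. With a median length of 327 kb from 27.5 to 1612 kb, 7 of 8 were at least 100 kb long, against 16.4% of the 8707 rows with a length that were counted at E9.5, whose median was 29.2 kb; length was looked at after the values were known. Among rows of at least 100 kb 16.4% were 2-fold higher in AGM positive than yolk sac positive cells at E11.5 and 5.19% at E9.5, against 8.85% and 3.25% of rows under 20 kb; 4.36% and 13.3% of the long rows were lower, against 5.54% and 9.02% of the short ones. In the negative pools 55.2% and 79.9% of the long rows were higher in the AGM, against 34.9% and 39.8% of the short ones. At E9.5 long rows in the positive pools were thus more often 2-fold different in both directions, with a median of -0.16 against -0.11 for short rows. What part this has in the members' ratios was not tested.

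By pattern over the 8 pools, each member was set beside 6322 rows with at least 200 counts, using the root mean square difference of log2(CPM + 5) after centring each row. Cdh2 lay nearest to Fbn2 (0.32) and Zfp462 (0.37), and Zfp462 to Npas3 (0.28) and Zfp618 (0.30), where the median row stood at 1.53 and 1.42. Skil lay nearest to Zfp532 (0.23), and Ptprg to Cttnbp2nl (0.36) and Dusp6 (0.37). Nrxn3 lay nearest to Plagl1 (0.39) and then Fry (0.58), Rapgef4 to Slc6a6 and Anxa3 (0.45 each), Dach1 to Cdh2 (0.59) and Lef1 (0.62), and Piezo2 to Limch1 (0.64) and Plk2 (0.68). Piezo2 thus had no row as near as the other members had. The likeness rests on 8 pools that include the 4 pools used to choose the genes.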

How the data were processed

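RNA of single sorted cells was counted per gene and well on 2 ICELL8 chips. The deposited tables hold whole-number counts that are not normalized; per the submitters' processing notes the authors used FastQC, cutadapt and STAR with mm10 (GRCm38). Versions, the counting tool, its handling of strand and of molecular identifiers, and the annotation are not given in the sources used here. The deposited table of wells names each well's tissue and gate, and the chip gives its stage. Sorted wells needed 500 genes and no more than 20% of counts from mitochondrial genes, which kept 1343 of the E11.5 and 1283 of the E9.5 wells. At E11.5 it kept 284 of 372 AGM positive and 343 of 388 yolk sac positive wells. Of the E11.5 negative wells it kept 337 of 339 (AGM) and 379 of 383 (yolk sac). At E9.5 it kept 325 of 326 yolk sac positive wells and all other sorted wells. Median genes per kept well were 752 and 777 in the AGM and yolk sac positive pools at E11.5, and 1831 and 1504 at E9.5. Wells had been imaged for single cells; no doublet caller was run and none were removed here.

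Counts were summed per pool and divided by the pool total, 841341 to 3862642 counts. Ratios carry exact conditional binomial 95% intervals, levels exact Poisson and shares exact Clopper-Pearson intervals, all of counting error only; a count of 0 was set to a floor of 3 counts. A gene was called higher or lower at 2-fold, among rows with at least 20 counts in the pair. With 1 pool a group no test was made. The members, gene lists and comparisons were chosen with earlier results of these data known. Values are given for the 8 members, for one relative of each family, for listed genes 2-fold higher at both stages and for the 2 rows nearest in pattern; some of these are not reported here. The ratio calculation was tested on simulated data. Alternatives were no well filter, a stricter filter (1000 genes and no more than 10% from mitochondrial genes), scaling by TMM, totals that leave out haemoglobin and mitochondrial genes, equal weight per well, wells with 3 of the 12 endothelial markers, Cdh5 included, rows with at least 100 counts, and thinning to 2500 counts or none. Software was Python 3.11.15 with numpy 2.4.6, pandas 2.3.3 and scipy 1.17.1, and edgeR 4.0.16 in R 4.3.3, used for the TMM factors only.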

Additional observations from a re-analysis of the deposited data

Results flagged for a closer look

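Nrxn3 pointed opposite ways at the 2 stages in 2 contrasts, with intervals on opposite sides of 0. AGM negative over yolk sac negative cells gave a log2 ratio of -1.65 at E11.5 (53.2 and 167 CPM) and 1.18 at E9.5 (9.41 and 4.14 CPM). Yolk sac positive over yolk sac negative cells gave -2.42 at E11.5 (31.2 and 167 CPM) and 2.29 at E9.5 (20.2 and 4.14 CPM). With TMM scaling the E9.5 ratio of AGM negative over yolk sac negative cells was 0.05, so the opposite direction of that contrast was nearly absent under it; the yolk sac contrast kept -2.42 and 1.46. Both contrasts share the yolk sac negative pools. Each pool is 1 sample and each stage 1 chip, so the difference between stages was not tested, and stage and chip cannot be told apart.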

How the results depend on the processing

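No paired analysis was possible because each stage, tissue and gate is 1 pool with no replicate number. None of 448 recomputed ratios of single members turned a 2-fold call to the other sign; 386 stayed within the counting interval and 62 moved out of it, 26 of these under TMM scaling. Counts of members called higher moved as follows. In AGM positive over yolk sac positive cells at E11.5, the strict well filter gave 5 of 7 members (Rapgef4 0.57 and Ptprg 0.80 on the log2 scale, with 77 wells left in each pool) and rows with at least 100 counts gave 4 of 4. In AGM negative over yolk sac negative cells at E9.5, rows with at least 100 counts gave 4 of 4, and totals without haemoglobin and mitochondrial genes gave 6 of 8 (5 of 8 at E11.5). For AGM positive over negative cells at E11.5 the count was 2 of 8 under the strict filter, 3 of 8 under TMM scaling, under totals without haemoglobin and mitochondrial genes and in wells with 3 endothelial markers, and 0 of 7 with at least 100 counts. For yolk sac positive over negative cells it was 2 of 8 at E11.5 under totals without haemoglobin and mitochondrial genes and in wells with 3 endothelial markers, 0 of 3 with at least 100 counts, and 1 of 1 at E9.5 with at least 100 counts. For AGM positive cells at E11.5 over E9.5 it was 4 of 8 in wells with 3 endothelial markers. For yolk sac positive cells at E11.5 over E9.5 it was 1 of 6 under the strict filter, 3 of 7 under TMM scaling and under totals without haemoglobin and mitochondrial genes, and 1 of 7 with equal weight per well and in wells with 3 endothelial markers. Co-detection with Cdh5 at E9.5 was more frequent for 8 of 8 members without thinning, for 6 when thinned to 2500 counts and for 5 when thinned to 1500. Fewer rows or wells account by construction for the lower counts under the 100-count minimum; for the others the cause was not tested. With 1 pool a group, intervals cover counting error only.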
